A study of Homo sapiens with 4 samples.

Results

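The annexins are a family of proteins that bind phospholipid membranes when calcium is present, through a conserved core of repeats that follows an amino-terminal tail of its own in each member. They link membranes to the cytoskeleton, take part in the traffic of vesicles and in the repair of the plasma membrane, and some act outside the cell. In ovarian carcinoma cells, ANXA3 and ANXA4 are known for their link to resistance to platinum drugs. The family was taken as the 10 genes ANXA1, ANXA2, ANXA3, ANXA4, ANXA5, ANXA6, ANXA7, ANXA9, ANXA10 and ANXA11, found by the gene name of the probe on every array. It was chosen because ANXA3 was among the genes with the highest ratio on the arrays with the GALNT3/T6 KO label, so all values of those arrays are given as a description, with no test. The 10 genes have 14 of the 41000 probes for genes, and all 10 were among the 27196 genes tested.

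A2780s is an established human cell line of epithelial ovarian cancer. Total RNA of 2 GALNT3 KO clones and of 2 GALNT3/T6 KO clones was hybridized, each on an array of its own, together with RNA of mock-transfected A2780s cells (Ctrl). GALNT3 and GALNT6 encode closely related GalNAc-transferases, which start mucin-type O-glycosylation, and the comparison asks how gene expression differs from Ctrl when GALNT3, or both genes, are suppressed. CRISPR-Cas9 gave the GALNT3 KO clones, and the GALNT3/T6 KO clones carry in addition shRNA against GALNT6, so the loss of GALNT3 is meant to be shared by all 4 clones. The effect of GALNT6 suppression cannot be told apart from that of shRNA delivery and the further selection after it. A group stands for 2 clones. Whether clones with the same number are of the same lineage, and whether 1 Ctrl RNA served all arrays, is not stated in the sources used here. The labels place Ctrl in the Cy3 channel and the KO clone in Cy5 on all 4 arrays, and every ratio is read that way. The study's methods speak of a reverse-color label for Ctrl, which leaves unsaid whether dyes were exchanged between arrays. With the layout of the labels, a dye effect of a probe cannot be told apart from the ratio. The 4 arrays lay on 1 slide.

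The targeted genes were read first. The single GALNT3 probe was dim (not well above background) in both channels of the 2 GALNT3 KO arrays, so it checks nothing there. On the arrays with the GALNT3/T6 KO label its log2 ratio of KO over Ctrl was 4.80 and 5.08. The KO channel was thus brighter than Ctrl for a gene that the label gives as knocked out, and the group is therefore called by its label throughout. GALNT6 had log2 ratios of -0.46 and -0.38 on the GALNT3 KO arrays and of -0.66 and -0.69 on the arrays with the GALNT3/T6 KO label. Over all genes tested, the ratios of the 2 GALNT3 KO arrays had a Pearson r of 0.83 across genes and those of the other pair 0.92, while arrays of different groups had r between 0.20 and 0.32. Of the cell type markers, all 8 markers of ovarian epithelial carcinoma had a mean log2 ratio above 0 on the arrays with the GALNT3/T6 KO label. So had 14317 of the 27196 genes tested. EPCAM lay on either side of 0, at -0.05 and 1.36. The means of the 8 markers ran from 0.06 for MUC16 to 5.68 for the keratin KRT18. Those of leukocytes lay near 0 or below, at 0.06 for PTPRC, 0.09 for CD14 and -0.36 for CD3E, and CDH5 of endothelium at -0.15. The fibroblast markers COL1A1, PDGFRB and THY1 were at 1.99, 3.44 and 1.24, and the part that any of these markers has in the annexin values was not tested. The arrays measured RNA of whole cultures, in which fewer cells with a transcript and less transcript per cell cannot be told apart.

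The probes show which transcript each value stands for. Those of ANXA3, ANXA2 and ANXA6 are printed because they lie in related coding sequence, while their genes differ in ratio. The ANXA3 probe A_23_P121716 lies within chr4:79525495-79531210 of hg19 on the plus strand. Its 60 bases span 5716 bases of the genome there, so that it crosses at least 1 intron. The ANXA2 probe A_23_P146644 crosses an intron too, at chr15:60639880-60641324 on the minus strand. The ANXA6 probe A_23_P357104 lies within chr5:150483134-150483193 on the minus strand. Capitals in the ANXA2 and ANXA6 probes mark bases identical to the ANXA3 probe when the 2 sequences are laid side by side without gaps at their best position. Capitals in the ANXA3 probe mark the bases identical to both.
ANXA3: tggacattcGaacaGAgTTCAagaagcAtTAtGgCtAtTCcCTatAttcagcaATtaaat
ANXA2: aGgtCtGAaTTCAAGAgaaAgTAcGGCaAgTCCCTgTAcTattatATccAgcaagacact
ANXA6: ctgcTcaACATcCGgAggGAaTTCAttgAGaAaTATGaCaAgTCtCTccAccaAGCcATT
The ANXA2 probe shared 29 of the 52 bases laid against ANXA3, and the ANXA6 probe 34 of 56. Of the ANXA3 probe, 20 bases were shared with both. The run ttca is common to all 3. Over the other 11 probes of the family the shared part ranged from 31.7% to 54.5% of the bases compared.

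ANXA3 and ANXA1 stood apart from the rest of the family on the arrays with the GALNT3/T6 KO label. ANXA3 is known from the granules of neutrophils and from platinum resistance of tumor cells. Its log2 ratio of KO over Ctrl was 6.26 and 6.64 on these arrays, and 0.10 and 0.36 on the GALNT3 KO arrays. Both arrays of the first group lay far above both of the second. The mean ratio of 6.45 ± 0.27 (SD, n = 2) corresponds to 87.4-fold and was 4th from the highest of 27196 genes. In GALNT3 KO cells the mean was 0.23 (SE 0.13, adjusted p = 0.270 from limma), which did not pass the test. ANXA1, which acts against inflammation and whose amino-terminal peptide binds formyl peptide receptors, had log2 ratios of 6.02 and 6.03 on the arrays with the GALNT3/T6 KO label. They were 0.12 and -0.04 on the GALNT3 KO arrays, again with no overlap. The mean of 6.03 ± 0.005 (SD, n = 2), or 65.2-fold, was 9th from the highest. In GALNT3 KO cells the ANXA1 mean was 0.04 (SE 0.09, adjusted p = 0.754 from limma).

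**Figure D1:**
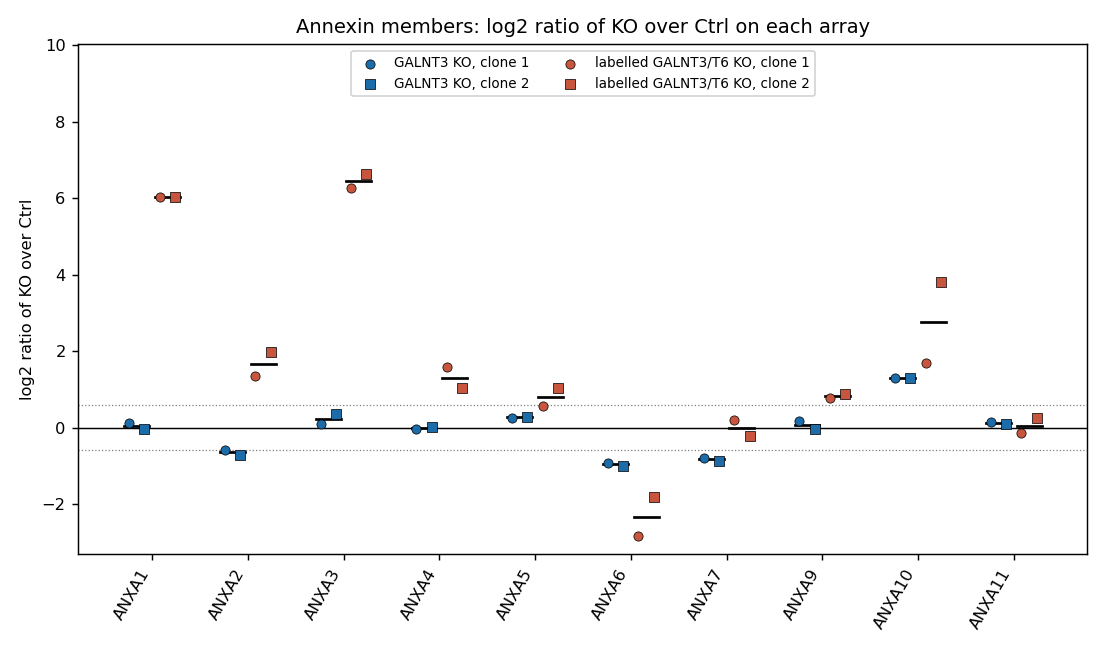
Log2 ratio of KO over Ctrl of each annexin on the 4 arrays, with a horizontal line at the mean of each group of 2 and dotted lines at 1.5-fold in either direction. ANXA1 and ANXA3 lie above 6 on both arrays labelled GALNT3/T6 KO and below 0.4 on both GALNT3 KO arrays, while ANXA6 lies below 0 on all 4.

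The channel signals behind these ratios were read separately, as log2 signals after normalization within and between arrays. For ANXA3 the KO channel was at 7.31 and 7.73 on the GALNT3 KO arrays and at 15.99 and 16.06 on the arrays with the GALNT3/T6 KO label. Its Ctrl channel was at 7.21 and 7.37 on the GALNT3 KO arrays, and at 9.73 and 9.42 on the arrays with the GALNT3/T6 KO label. The Ctrl signal was thus higher where the KO signal was higher, by 2.29 in the mean. That excess of Ctrl came to 1.07% and 0.77% of the KO signal on the same array. Taken between the KO channels alone, ANXA3 differed by 8.51 on the log2 scale, or 364-fold, against 87.4-fold by the ratio to Ctrl. On the GALNT3 KO arrays both ANXA3 channels lay below the leukocyte marker PTPRC, which was at 7.78 to 8.25 there. The 364-fold and the ANXA3 ratio in GALNT3 KO cells thus rest on signals near the floor, and their size is uncertain. For ANXA1 the Ctrl channel was at 9.80 and 9.61 on the GALNT3 KO arrays and at 10.19 and 9.94 on the others, an excess of 0.44% and 0.23% of the KO signal. Its KO channels were at 9.91 and 9.57, and at 16.21 and 15.97, and differed 81.6-fold between the groups. On the GALNT3 KO arrays the leukocyte marker CD14 was brighter than both ANXA1 channels, at 10.14 to 10.78. CD3E was near them, at 9.64 to 10.23, and PTPRC was dimmer. On the arrays with the GALNT3/T6 KO label the Ctrl signal of CD14 was at 10.26 and 10.18, again above ANXA1. The 65.2-fold and the 81.6-fold of ANXA1 thus rest on signals no brighter than some leukocyte markers, and their size is uncertain. The mean Ctrl signal of every other annexin differed by at most 0.37 between the groups, which was the value for ANXA4. The excess of Ctrl came to 8.46% and 9.72% of the KO signal for ANXA4 and to -27.5% and -11.8% for ANXA6. These shares rest on mean Ctrl differences of 0.37 and -0.05, and the KO signal of ANXA6 was below Ctrl. A higher Ctrl signal was not particular to ANXA3. The genes nearest to it in ratio, named below, also had a brighter Ctrl channel on the arrays with the GALNT3/T6 KO label, by 4.42 for EFEMP1, 3.62 for S100A6, 2.40 for PODXL and 1.56 for ALDH1A3, and so did the keratins KRT8, KRT18 and KRT19, by 2.90, 2.49 and 2.48. Over all genes tested, the mean Ctrl signal was at least 2 higher on the log2 scale for 126 genes (0.463%) and at least 2 lower for 3. The cause was not tested.

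**Figure D2:**
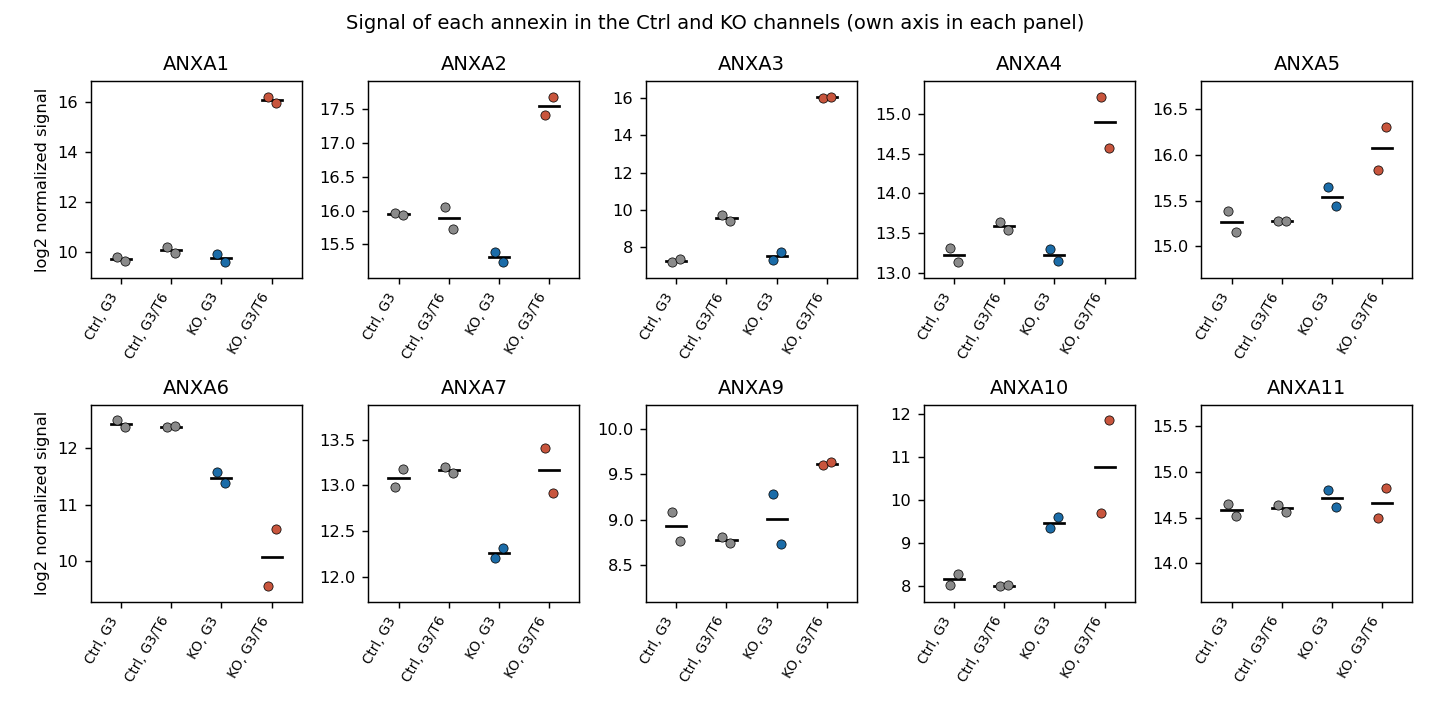
Log2 normalized signal of each annexin, with an axis of its own in each panel: grey points are the Ctrl channel and colored points the KO channel, on the 2 GALNT3 KO arrays (G3) and the 2 arrays labelled GALNT3/T6 KO (G3/T6), and the line is the mean. Among the 10 members, the Ctrl channel differs by more than 0.37 between the groups of arrays for ANXA3 alone, with a mean difference of 2.29.

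In addition to ANXA1 and ANXA3, 4 annexins were at least 1.5-fold higher than Ctrl on both arrays labelled GALNT3/T6 KO. With these, 6 of the 10 members were higher by that rule, and 1 was lower. Over all genes tested, 11.6% were higher and 13.7% lower by the same rule, and nothing is read from the comparison because the family was picked on these arrays. The median of the members' ratios was 1.07, and that of all genes 0.03. ANXA2, which forms a complex with S100A10 that binds plasminogen at the cell surface, had log2 ratios of 1.36 and 1.97. It was below Ctrl on the GALNT3 KO arrays, at -0.58 and -0.70, so that the groups lay on opposite sides of 0. Its mean of 1.66 ± 0.43 (SD, n = 2) on the arrays with the GALNT3/T6 KO label was 3.17-fold, and its mean of -0.64 (SE 0.16, adjusted p = 0.0718 from limma) in GALNT3 KO cells did not pass the test. ANXA4, an annexin of epithelial cells, had log2 ratios of 1.58 and 1.03 on the arrays with the GALNT3/T6 KO label, and of -0.02 and 0.01 on the GALNT3 KO arrays. The first group lay above the second, with a mean of 1.30 ± 0.39 (SD, n = 2), and the GALNT3 KO mean of -0.01 (SE 0.15) had an adjusted p = 0.982 from limma.

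ANXA9 and ANXA10 differ from the other members in the calcium-binding sites of their core. ANXA9 had log2 ratios of 0.79 and 0.89 on the arrays with the GALNT3/T6 KO label and 0.19 and -0.04 on the GALNT3 KO arrays. The groups did not overlap. The mean was 0.84 ± 0.07 (SD, n = 2), or 1.79-fold, against 0.08 (SE 0.10, adjusted p = 0.594 from limma) in GALNT3 KO cells. ANXA10, known from the gastric mucosa, was above Ctrl on all 4 arrays, at 1.31 and 1.30 on the GALNT3 KO arrays and at 1.69 and 3.82 on the arrays with the GALNT3/T6 KO label. The 2 clones of the latter group differed more for ANXA10 than for any other member, with a mean of 2.75 ± 1.51 (SD, n = 2). The GALNT3 KO mean of 1.31 was 2.47-fold, and with a shared estimate of the spread its SE was 0.50 and its adjusted p = 0.141 from limma. The Ctrl log2 signal of ANXA10 was at 8.01 to 8.30, near that of PTPRC at 7.70 to 8.18, so the size of its ratios is uncertain.

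The remaining members were nearer to Ctrl, or lower. ANXA5, which binds phosphatidylserine and serves as a probe of dying cells, had log2 ratios of 0.27 and 0.28 on the GALNT3 KO arrays and of 0.57 and 1.03 on the arrays with the GALNT3/T6 KO label. All 4 values lay above 0, with the second group higher. The mean was 0.80 ± 0.33 (SD, n = 2) in that group and 0.27 (SE 0.13, adjusted p = 0.207 from limma) in GALNT3 KO cells. ANXA11, which binds S100A6 and PDCD6 through its long tail, was at 0.15 and 0.10 on the GALNT3 KO arrays and at -0.14 and 0.26 on the arrays with the GALNT3/T6 KO label. Its groups overlapped, with means of 0.12 (SE 0.12, adjusted p = 0.490 from limma) and 0.06 ± 0.28 (SD, n = 2).

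ANXA6, the member with a duplicated core, had the lowest ratio of the family on the arrays with the GALNT3/T6 KO label. Its values were -2.82 and -1.82 there, and -0.91 and -0.99 on the GALNT3 KO arrays. All 4 values lay below 0 and the groups did not overlap. Ctrl exceeded KO by 4.99-fold in the mean on the arrays with the GALNT3/T6 KO label (log2 ratio -2.32 ± 0.71, SD, n = 2). In GALNT3 KO cells Ctrl exceeded KO by 1.93-fold, with a mean log2 ratio of -0.95 (SE 0.25, adjusted p = 0.0717 from limma), which did not pass the test.

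ANXA7 was the only member to pass the test in GALNT3 KO cells. ANXA7, or synexin, is known for bringing secretory granules together and binds sorcin. Its log2 ratios were -0.78 and -0.87 on the GALNT3 KO arrays, and 0.21 and -0.21 on the arrays with the GALNT3/T6 KO label. It was below Ctrl on both arrays of the first group and on either side of 0 in the second. ANXA7 fell by 0.83 on the log2 scale in GALNT3 KO cells (SE 0.13, adjusted p = 0.0337 from limma), with Ctrl 1.77-fold above KO. So 1 of 10 members was called, where over all genes 11.2% were called in either direction and 6.44% lower, so that the share of members was near that of all genes. At an unadjusted p of at most 0.05 there were 3 members, beside 35.6% of all genes. Of the genes called, 42.6% were higher than Ctrl, and 23.5% when each array was centered on its median in place of loess. The call of ANXA7 was lost when either GALNT3 KO array was left out, with adjusted p = 0.282 without clone 1 and adjusted p = 0.412 without clone 2, both from limma. It was also lost with Agilent's own log ratio, where the ANXA7 mean was -0.45, and in a fit with the clone number as a replicate block.

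By the 1.5-fold rule on both GALNT3 KO arrays, ANXA10 was higher, and ANXA6 and ANXA7 were lower. Over all genes tested, 2.17% were higher and 4.45% lower by this rule. The members' median log2 ratio in GALNT3 KO cells was 0.06, and that of all genes 0.02. Between the groups, 7 members had both ratios of the arrays with the GALNT3/T6 KO label above both GALNT3 KO ratios with means at least 1.5-fold apart, and ANXA6 had both below. All genes gave 14.1% and 14.6% by that rule, from which nothing is read here. The differences of the means ran from -1.37 for ANXA6 to 6.22 for ANXA3, with 5.99 for ANXA1, 2.30 for ANXA2, 1.45 for ANXA10, 1.31 for ANXA4, 0.83 for ANXA7 and 0.77 for ANXA9. ANXA5, at 0.52, and ANXA11, at -0.07, were less than 1.5-fold apart.

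**Figure D3:**
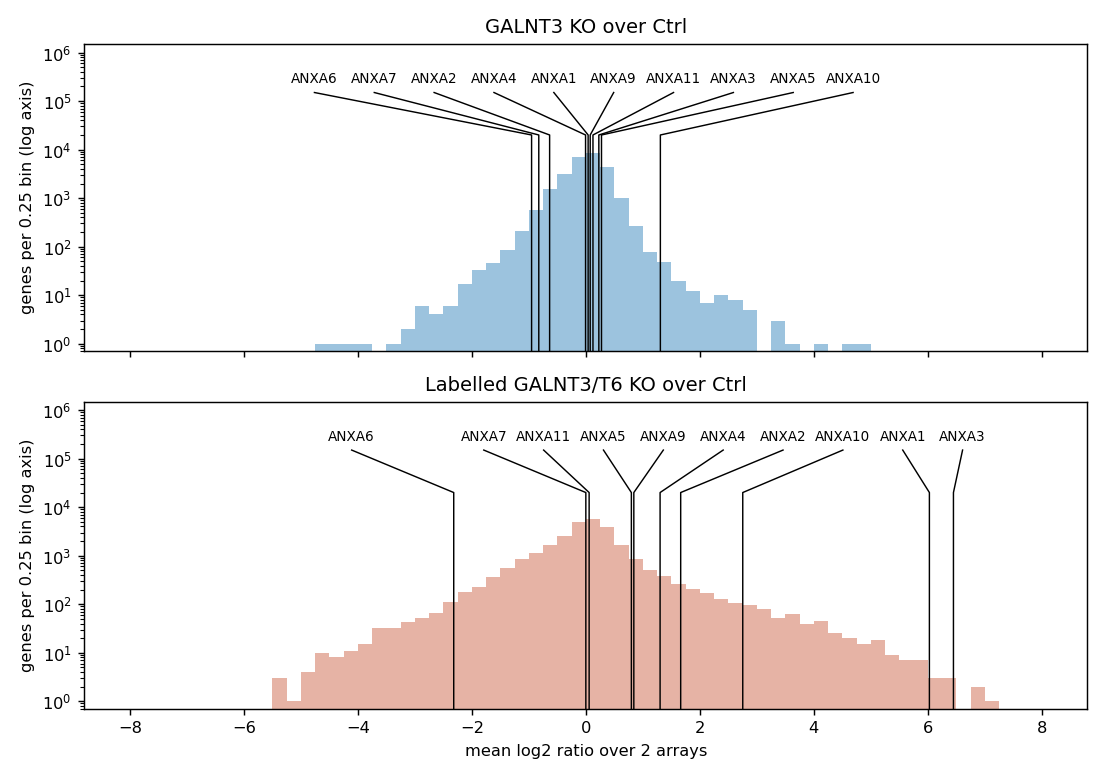
Number of genes (log axis) by mean log2 ratio of KO over Ctrl over the 2 arrays of each group, in bins of 0.25, with the 10 annexins marked. In the upper panel all members lie between -0.95 and 1.31, and in the lower panel they run from -2.32 for ANXA6 to 6.45 for ANXA3.

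ANXA2 and ANXA11 have 3 probes each, and the brightest of them gave the values above. For ANXA2 the other probes had log2 ratios of 2.06 and 2.96 (A_23_P146644, printed above), and of 1.65 and 1.76 (A_32_P148345), on the arrays with the GALNT3/T6 KO label. All 3 probes were thus above Ctrl on both of these arrays. On the GALNT3 KO arrays A_23_P146644 was at -0.40 and -0.37 and A_32_P148345 at 0.04 and -0.03, so that the lower ANXA2 value there did not hold for every probe. For ANXA11 the probes differed, since A_24_P107142 was below Ctrl on all 4 arrays, at -0.65 and -0.65 on the GALNT3 KO arrays and at -0.59 and -0.63 on the others. The third ANXA11 probe, A_32_P150632, was at -0.17 and -0.28, and at 0.16 and 0.29. The pseudogenes of ANXA2 are near copies of its transcript, and the values of their probes and of ANXA2 are uncertain for that reason. The ANXA2P1 probe gave 2.34 and 2.82 on the arrays with the GALNT3/T6 KO label, and the ANXA2P3 probe 1.58 and 1.89. Other genes named after annexins were no members. ANXA8L1 was at 2.66 and 2.85 on these arrays and at 0.06 and -0.01 on the GALNT3 KO arrays. Its Ctrl signal differed too, at 14.02 and 13.40 on the arrays with the GALNT3/T6 KO label and at 10.70 and 10.34 on the others. The KO channel of ANXA8L1 was at 16.67 and 16.26, and at 10.75 and 10.34, so its KO channels differed by more than the ratios. ANXA2R, a receptor of ANXA2, had log2 ratios of -1.83 and -2.35 on the arrays with the GALNT3/T6 KO label, and of -1.22 and -0.77 on the GALNT3 KO arrays.

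**Figure D4:**
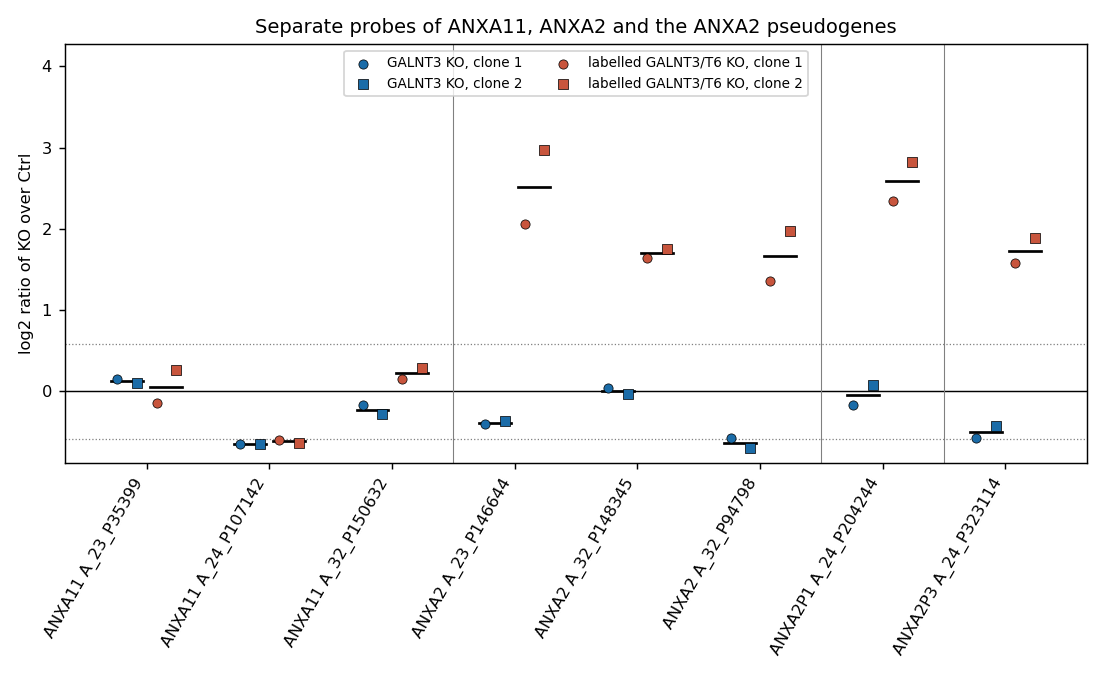
Log2 ratio of KO over Ctrl on the 4 arrays for the 3 probes of ANXA11, the 3 of ANXA2 and those of the pseudogenes ANXA2P1 and ANXA2P3, with a line at the mean of each group of 2. All ANXA2 and pseudogene probes lie above 1.3 on the arrays with the GALNT3/T6 KO label, while the ANXA11 probes lie between -0.65 and 0.29.

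The proteins that annexins work with were read from a list of 26 genes, all of which were among the genes tested. In GALNT3 KO cells 5 of the 26 passed the test, 2 higher and 3 lower, and the median log2 ratio of all 26 was -0.15. Over all genes 4.79% were called higher and 6.44% lower. Of the 7 binding partners, S100A10, the partner of ANXA2, and S100A11, the partner of ANXA1, rose. S100A10 was at 2.33 and 2.67 on the GALNT3 KO arrays and at 5.90 and 5.72 on the arrays with the GALNT3/T6 KO label. It was above Ctrl on all 4 arrays, and its GALNT3 KO mean of 2.50 (SE 0.12, adjusted p = 0.00560 from limma) was 5.67-fold, while that of ANXA2 lay below 0. S100A11 was at 1.13 and 1.58, and at 1.84 and 2.06, with a GALNT3 KO mean of 1.35 (SE 0.14, adjusted p = 0.0198 from limma). Sorcin (SRI) fell by 0.52 on the log2 scale in GALNT3 KO cells (adjusted p = 0.0461 from limma), where its partner ANXA7 fell too. The 2 genes did not go together on the arrays with the GALNT3/T6 KO label. There SRI was at -0.42 and -0.67, and ANXA7 at 0.21 and -0.21.

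S100A6, a partner of ANXA11 and ANXA2, had log2 ratios of 6.76 and 7.19 on the arrays with the GALNT3/T6 KO label, and of 0.18 and 0.57 on the GALNT3 KO arrays. Its groups lay 6.60 apart in the mean, beside 6.22 for ANXA3. Its Ctrl signal was higher on the arrays with the GALNT3/T6 KO label as well, so that the KO channels alone differed by 10.22, beside 8.51 for ANXA3. AHNAK, a very large scaffold protein that binds the complex of ANXA2 and S100A10, was at 2.07 and 3.26, and at -0.48 and -0.95. S100A4 was below Ctrl on all 4 arrays, at -1.62 and -2.23 on the arrays with the GALNT3/T6 KO label and at -1.51 and -0.63 on the GALNT3 KO arrays. None of the 3 passed the test in GALNT3 KO cells, with adjusted p between 0.0645 for S100A4 and 0.170 for AHNAK from limma.

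Of the 3 formyl peptide receptors, which respond to ANXA1, none passed the test in GALNT3 KO cells (all 3 had an adjusted p of at least 0.104 from limma). FPR1 was at 1.93 and 1.91 on the arrays with the GALNT3/T6 KO label and at 0.11 and 0.33 on the GALNT3 KO arrays, while FPR2 and FPR3 differed by less than 0.1 between the group means. The Ctrl log2 signal of FPR1 was at 7.53 to 7.66, below that of the leukocyte marker PTPRC on every array, so the size of its ratios is uncertain. Of the 5 genes of the plasminogen system, PLAUR, the receptor of urokinase, fell by 1.20 on the log2 scale in GALNT3 KO cells (SE 0.10, adjusted p = 0.0131 from limma). PLAUR was at -1.31 and -1.09 there and at 1.26 and 1.37 on the arrays with the GALNT3/T6 KO label, on opposite sides of Ctrl. The KO log2 signal of PLAUR was at 7.41 and 7.81 on the GALNT3 KO arrays, where that of PTPRC was at 8.25 and 7.78. The size of the fall is thus uncertain. Urokinase itself (PLAU) was at 3.43 and 3.87 on the latter arrays and at 0.05 and 0.13 on the former. The PLAU groups did not overlap.

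Of the 11 genes of membrane repair, PDCD6IP, an adaptor of the ESCRT machinery, fell by 1.13 on the log2 scale in GALNT3 KO cells (SE 0.21, adjusted p = 0.0447 from limma). It was at -0.80 and -1.45 on the GALNT3 KO arrays and at -1.21 and -0.65 on the arrays with the GALNT3/T6 KO label, with groups that overlapped. By the 1.5-fold rule 4 of the 11 were higher on both arrays labelled GALNT3/T6 KO and PDCD6IP was lower, and the median log2 ratio of the 11 there was 0.12. Over all genes tested, 11.6% were higher and 13.7% lower by the same rule, and nothing is read from the count. Caveolin (CAV1) was at 3.38 and 3.83 and EHD2, a membrane-shaping ATPase, at 2.57 and 3.11. On the GALNT3 KO arrays CAV1 was at -0.82 and -0.33, and EHD2 at -0.15 and -0.32. The calpain subunit CAPN2 was at 1.26 and 2.53, and the ferlin MYOF at 1.03 and 2.02, on the arrays with the GALNT3/T6 KO label. The means of the others lay from -0.45 for CAPNS1 and -0.41 for VPS4A to 0.97 for CHMP4B. Over all 26 genes the median log2 ratio on these arrays was 1.14. All 5 calls in GALNT3 KO cells were lost when either GALNT3 KO array was left out, and those of SRI and PDCD6IP with Agilent's log ratio, with median centering and with the mean of all probes, where PDCD6IP was at -0.49. Of the 5, S100A10 alone was called with the replicate block, where 82 of all genes were called in place of 3053.

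**Figure D5:**
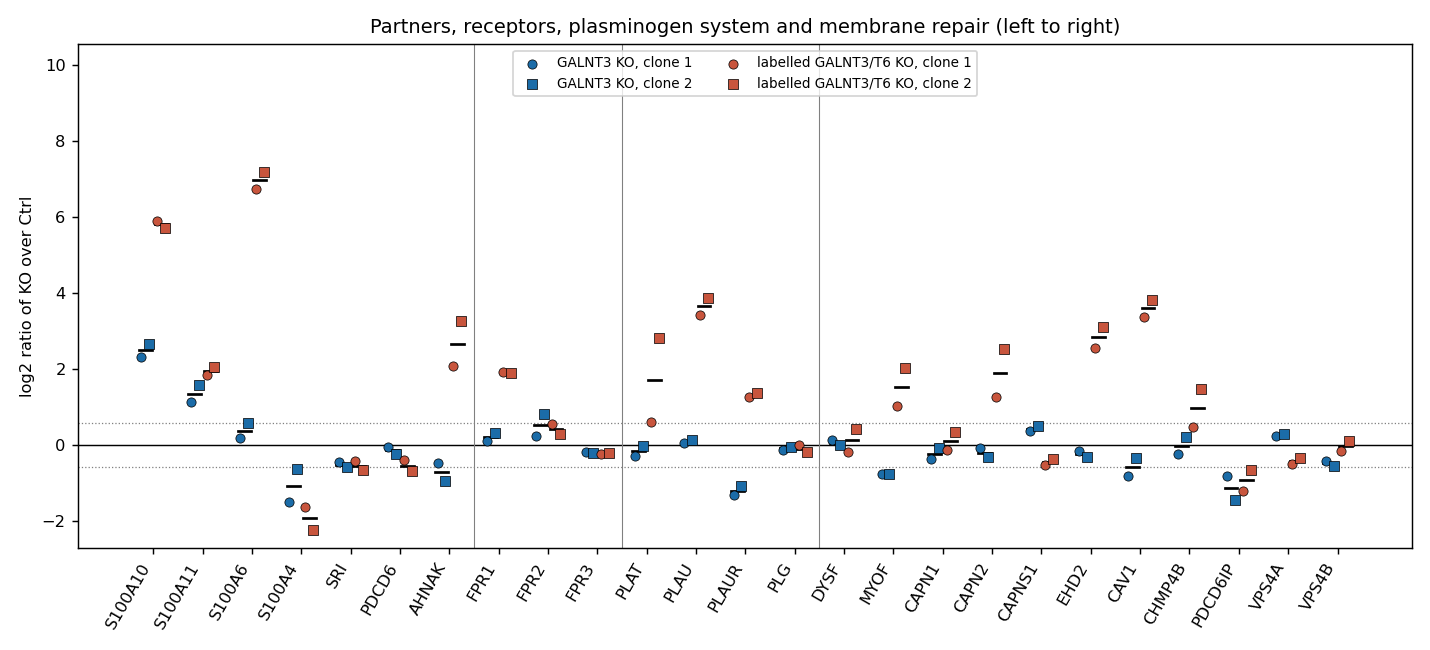
Log2 ratio of KO over Ctrl on the 4 arrays for genes that work with annexins, split by vertical lines into binding partners, receptors of ANXA1, the plasminogen system and membrane repair, with a line at the mean of each group of 2. S100A6 and S100A10 lie above 5.7 on the arrays with the GALNT3/T6 KO label, and S100A10 is the only one plotted above 2 on the GALNT3 KO arrays.

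The genes most like ANXA3 were those with the smallest Euclidean distance to it over the log2 ratios of the 4 arrays. They were ALDH1A3, an enzyme that makes retinoic acid (distance 0.47), the sialomucin PODXL (0.60), the matrix protein EFEMP1 (0.63), ANXA1 (0.76) and S100A6 (0.78). All 5 had ratios above 5.9 on both arrays labelled GALNT3/T6 KO and below 0.6 on both GALNT3 KO arrays. The next annexin was ANXA10, at a distance of 5.59 and rank 566, and the farthest was ANXA6, at 12.5. With 4 arrays this is a description of these clones.

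ANXA1 and ANXA3, which had nearly the same ratios, are printed with the 250 bases upstream of their starts, because these differ in base composition. The sequences are those of RefSeq on GRCh38.p14, where all 10 members had at least 1 start and 14 starts in all. The ANXA1 sequence is chr9:73151615-73151864 and the ANXA3 sequence chr4:78551520-78551769, both on the plus strand. Capitals in ANXA1 mark TATAAA and CCAAT on either strand, and capitals in ANXA3 mark CG dinucleotides.
ANXA1: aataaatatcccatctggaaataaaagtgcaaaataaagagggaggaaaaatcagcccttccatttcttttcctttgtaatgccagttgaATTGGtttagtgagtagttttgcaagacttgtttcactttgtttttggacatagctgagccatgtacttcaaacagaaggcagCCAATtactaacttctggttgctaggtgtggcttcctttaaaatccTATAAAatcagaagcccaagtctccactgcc
ANXA3: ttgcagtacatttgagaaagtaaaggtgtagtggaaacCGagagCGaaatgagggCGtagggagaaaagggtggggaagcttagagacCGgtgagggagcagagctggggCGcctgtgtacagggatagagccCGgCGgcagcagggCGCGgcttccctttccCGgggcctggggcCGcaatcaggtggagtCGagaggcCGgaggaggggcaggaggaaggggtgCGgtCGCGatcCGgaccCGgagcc
The ANXA1 sequence has 38.4% G and C and no CG dinucleotide, with TATAAA 31 bases before the start and 2 matches to CCAAT. The ANXA3 sequence has 64% G and C and 18 CG dinucleotides, and none of the 5 motifs searched. The motifs were the TATA box (TATAAA), the CCAAT box (the letters of its name), the GC box (GGGCGG), the AP-1 site (TGANTCA) and the E-box (CACGTG), each on both strands, and none of them contains another. Of 35116 promoters of this length 10.7% hold the TATA box, 32.0% the CCAAT box, 42.6% the GC box, 6.57% the AP-1 site and 6.34% the E-box, and the median promoter has 58% G and C and 11 CG dinucleotides. ANXA10, the member with the widest spread between clones, is like ANXA1 in having 31.2% G and C, TATAAA and no CG dinucleotide. ANXA2, ANXA4 and ANXA5 have between 71.6% and 78.8% G and C. A match to these letters is a description of the sequence, and no factor was measured here.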

How the data were processed

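Spot intensities of 4 Agilent arrays with 2 channels were analyzed as the authors deposited them from Agilent Feature Extraction, version 8.5.1.1 by the labels and 10.7.3.1 per the file headers. The log10 ratios of red over green in the deposited files, and the deposited value table that holds the same ratios rounded, served as alternatives, and the deposited flags put 86.9% to 93.8% of spots per channel well above background. No spot was saturated, leukocyte markers passed that flag too, and the number of arrays limits the precision. The unused columns of the table numbered 0.

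Background was corrected with normexp (offset 50) and dyes were normalized by loess within arrays. Channel signals were in addition normalized between arrays (Aquantile). Each gene was read from the brightest of its probes that, on the 2 arrays of either group, were well above background in Ctrl or KO. limma 3.58.1 in R 4.3.3 fitted all 4 arrays with a mean for each group, which shared 1 estimate of the spread, and set GALNT3 KO against Ctrl, with Benjamini-Hochberg adjustment over 27196 genes and calls at 0.05. No Ctrl was hybridized against Ctrl, so its own spread is not measured. Each clone had an array of its own, so p-values measure the spread between arrays of a group, pooled over both groups. In that spread clone, labeling, array and Ctrl cannot be told apart. The fit was tested on simulated data. The 1.5-fold minimum follows the study's methods.

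The members, the lists and the tests were chosen with earlier results of these data known. Named were the members, GALNT3 and GALNT6, cell type markers, partners called or past 2-fold on both arrays of a group, the 5 genes nearest to ANXA3, and other genes named after annexins. Alternatives were other background and dye corrections, the mean of all probes, no filter, the spread of the compared group alone, each array left out, the clone number as a block and the methods' t-test. Same-numbered clones did not deviate together (r = -0.24 across genes, 2 pairs). Probe positions are hg19 as deposited. Authors' comparisons were not used. The values of 1 listed partner are not reported here.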

Additional observations from a re-analysis of the deposited data

Results flagged for a closer look

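Within the 4 Ctrl signals of a gene, 1 array stood apart from the other 3 for ANXA6, at a log2 signal of 12.49, and for ANXA10, at 8.30. Chance sets such a mark in about 1 of 20 groups, and 10 members were read.

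Among the 10 members and the 26 listed partners, for 10 genes both arrays of 1 group lay above Ctrl and both of the other below. The rule had no fold minimum, and its share over all genes was not determined, so nothing is read from the count. The log2 ratio of the arrays labelled GALNT3/T6 KO exceeded that of GALNT3 KO by 2.30 for ANXA2, 3.38 for AHNAK, 1.88 for PLAT, 2.52 for PLAUR and 2.29 for MYOF. It exceeded it by 2.10 for CAPN2, 3.07 for EHD2 and 4.18 for CAV1, and the difference was -0.88 for CAPNS1 and -0.67 for VPS4A. These differences were not tested, since the arrays labelled GALNT3/T6 KO had served to pick the family. The KO signals of PLAT, PLAUR and EHD2 on the GALNT3 KO arrays were near or below that of PTPRC, so the size of their differences is uncertain.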

How the results depend on the processing

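The number of annexins called in GALNT3 KO cells, 1 with the settings used, was 0 with Agilent's log ratio, with the deposited table and with the methods' t-test, each of which gave 4 annexins at an unadjusted p of at most 0.05, beside 26.3%, 26.3% and 14.7% of all genes. It was 4 (ANXA2, ANXA6, ANXA7 and ANXA10) when the spread was taken from GALNT3 KO alone. Leaving out 1 array gave from 0 to 4 annexins and from 0 to 14 partners: 0 without either GALNT3 KO array, where the lone clone is taken to vary like the other group and no gene was called and the lowest adjusted p was 0.282 or 0.340 (1 annexin, 8 or 5 partners and 4685 or 3251 genes at an unadjusted p of at most 0.05), and the highest counts without either array labelled GALNT3/T6 KO. The partners called, 5 with the settings used, were 3 with Agilent's log ratio or the deposited table, 14 with the spread of the GALNT3 KO arrays alone, and 0 with the methods' t-test, which the methods name for other assays, with no test named for the arrays. At the methods' threshold for arrays, an unadjusted p of at most 0.05 with at least 1.5-fold, it gave 3 annexins, 2 partners and 930 genes. By p alone it gave 4 partners and 3994 genes, and after Benjamini-Hochberg adjustment no gene. With the clone number as a replicate block 0 annexins were called (4 at an unadjusted p of at most 0.05, beside 27% of all genes) and 1 partner. A block with crossed numbers, chosen after seeing the data, gave 3 annexins, 7 partners and 3677 genes.

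Genes called over all were 3053 with the settings used, 590 with Agilent's log ratio, 586 with the deposited table, 9441 with the spread of GALNT3 KO alone and 82 with the block. Leaving out either array labelled GALNT3/T6 KO gives the same test as the spread of GALNT3 KO alone, since a lone array adds no spread. These alternatives are therefore 1 result and not separate ones. The counts past 1.5-fold on both arrays moved from 3 to between 2 and 4 for GALNT3 KO, from 7 to between 7 and 8 for the arrays labelled GALNT3/T6 KO, and from 8 to between 7 and 9 between the groups. On the arrays labelled GALNT3/T6 KO, ANXA1 ranged from 5.61 to 6.03 and ANXA3 from 6.14 to 6.64. The adjusted p of ANXA7 ranged from 0.000563 to 0.412 over 14 alternatives, and that of S100A10 from 3.6e-06 to 0.340. The GALNT3 KO ratios of ANXA1, ANXA4, ANXA9 and ANXA11, and the ratios of ANXA7 and ANXA11 on the arrays labelled GALNT3/T6 KO, lay near 0 and changed sign with some settings. The cause of these changes was not tested.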
